A study of Mus musculus with 12 samples.

Results

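The G1 regulators examined here were 10 genes of 15687 in the expression table, namely the cyclins *Ccnd1*, *Ccnd2*, *Ccnd3* and *Ccne1*, the CDK inhibitors *Cdkn1a*, *Cdkn1b*, *Cdkn2a* and *Cdkn2b*, and the transcription factors *Myc* and *Trp53*. They were chosen by name as G1 regulators, with earlier results of these data known, and all 10 of 10 passed the filter on low values. RNA was sequenced from 12 subcutaneous allograft tumors of mTc11, a mouse lung cancer cell line. For each tumor, 1000000 cells in growth factor-reduced Matrigel were injected under the skin of a male C57BL6/J mouse aged 8 weeks, and the tumor was snap-frozen on day 24. In the CTL group (n = 6) the cells carried a control shRNA (shControl, genotype given as WT), and in the *Filip1l*-knockdown group (n = 6) they carried an shRNA (*Filip1l* KD) against *Filip1l*, a tumor suppressor candidate of lung adenocarcinoma. Both kinds of cells were puromycin-selected mixed clones infected with lentivirus. The sources used here do not state which of the study's shRNAs the sequenced tumors carried, or whether a group came from more than a single pool of cells. The purpose of the comparison was to find which transcripts differ in tumors with less *Filip1l*.

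Cells leave G1 when D-type cyclins, bound to *Cdk4* or *Cdk6*, and then cyclin E, bound to *Cdk2*, phosphorylate the retinoblastoma protein and free E2F factors to switch on replication genes. The INK4 inhibitors p16 (from *Cdkn2a*) and p15 (from *Cdkn2b*) block *Cdk4* and *Cdk6*, and the CIP/KIP inhibitors p21 (*Cdkn1a*) and p27 (*Cdkn1b*) bind cyclin-CDK complexes. *Myc* and Ras-ERK signaling drive the cyclins in many lung cancers, p53 (*Trp53*) activates *Cdkn1a*, and *Ccnd1* and *Myc* are classical targets of Wnt/β-catenin signaling.

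The targeted gene was lower, by a modest amount. *Filip1l* (chr16:57353093-57573126, plus strand, mm10) went from 2311 ± 211 normalized counts in the CTL group to 1924 ± 165 with knockdown (mean ± SD, n = 6 each; log2 fold change -0.26, SE 0.07, limma adjusted p = 0.00998). Its ranges overlapped, at 1983 to 2542 in CTL and 1670 to 2184 in knockdown tumors, and 6 of 6 knockdown tumors were below the CTL median. Normalized counts are reads per gene divided by a factor for each library. They can be compared between tumors for the same gene.

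Reads on the listed genes numbered 17834745 to 29502069 in CTL and 25460564 to 32419578 in knockdown tumors, with CTL replicate 5 the shallowest library. *Filip1l*-knockdown replicate 1 stood apart from the rest of its group. Its mean Euclidean distance to the other knockdown tumors, over all genes on the log2 scale, was 93.9, against 75.5 among those others, and CTL replicate 5 was the farthest of its group at 81.8 against 68.1. List counts that move by over 1.5 times without these libraries are given both ways.

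Among the 10 regulators, 3 were higher and 2 lower in knockdown tumors at an adjusted p below 0.05 (limma, Benjamini-Hochberg over 15687 genes). Of all genes tested, 41.9% passed this threshold, 21.1% higher and 20.7% lower, so the 5 of 10 were near the background. With the study's added threshold of an absolute log2 fold change over 1, 1 of 10 passed against 10.2% of all genes. The groups did not overlap for 3 of 10, against 21.5% of all genes. In bulk tumors, fewer cells of a type and less RNA per cell cannot be told apart. The genes that rose were *Ccnd2*, *Cdkn1a* and *Cdkn2b*, and those that fell were *Ccnd1* and *Cdkn1b*. The median log2 fold change of the 10 was -0.04, beside 0.01 over all genes.

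**Figure D1:**
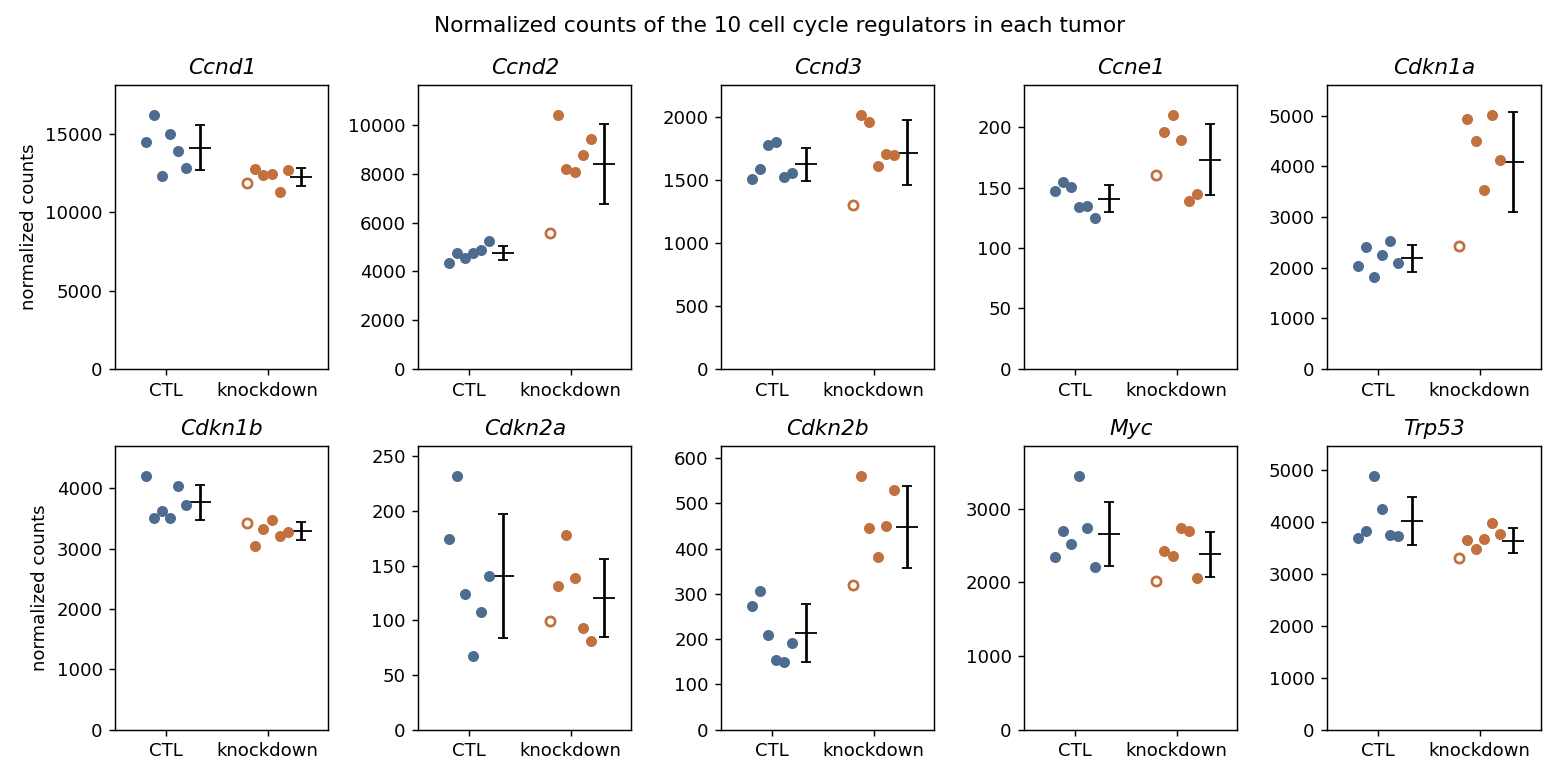
Normalized counts of each regulator in the 6 CTL (blue) and 6 *Filip1l*-knockdown tumors (orange). Each point is a tumor, bars give the mean and SD, each y axis starts at 0, and the open point is *Filip1l*-knockdown replicate 1, which was the lowest knockdown tumor for *Ccnd2*, *Ccnd3*, *Cdkn1a*, *Cdkn2b*, *Myc* and *Trp53*.

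Promoter sequences are shown for *Cdkn2b* and *Cdkn1a*, the inhibitors that rose, and for *Cdkn1b*, the inhibitor that fell, so that the upstream sequence of genes that moved in opposite directions can be compared. Each is the 250 bases before a RefSeq transcription start (GRCm38.p6), written 5′ to 3′ on the gene's strand. Capitals mark a match on either strand. The motifs searched were the GC box with its letters GGGCGG, the TATA element spelled TATAAA, the E-box bound by *Myc* and spelled CACGTG, the NF-Y box spelled CCAAT, the E2F site in either of the spellings TTTGGCGC and TTTCGCGC, the AP-1 site spelled TGAGTCA with its reverse complement, a palindromic Smad box spelled GTCTAGAC, and the core of a p53 site spelled CATGNNNNNNCATG.
*Cdkn2b*, chr4:89311033-89311282, minus strand: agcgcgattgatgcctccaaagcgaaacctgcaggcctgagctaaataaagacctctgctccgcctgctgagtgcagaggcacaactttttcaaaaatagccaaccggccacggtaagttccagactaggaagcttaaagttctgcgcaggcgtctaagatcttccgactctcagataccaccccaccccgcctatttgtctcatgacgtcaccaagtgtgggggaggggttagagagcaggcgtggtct
*Cdkn1a*, upstream start, chr17:29090729-29090978, plus strand: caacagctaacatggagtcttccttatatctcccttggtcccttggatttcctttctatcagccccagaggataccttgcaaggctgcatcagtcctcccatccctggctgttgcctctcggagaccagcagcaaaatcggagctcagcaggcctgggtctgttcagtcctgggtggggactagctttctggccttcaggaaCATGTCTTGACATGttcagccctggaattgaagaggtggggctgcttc
*Cdkn1a*, downstream start, chr17:29093519-29093768, plus strand: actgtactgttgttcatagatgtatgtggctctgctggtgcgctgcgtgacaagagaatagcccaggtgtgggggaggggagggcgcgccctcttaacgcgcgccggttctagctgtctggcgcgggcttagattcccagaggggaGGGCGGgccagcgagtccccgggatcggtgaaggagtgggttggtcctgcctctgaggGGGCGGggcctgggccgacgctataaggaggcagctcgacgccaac
*Cdkn1b*, chr6:134920151-134920400, plus strand: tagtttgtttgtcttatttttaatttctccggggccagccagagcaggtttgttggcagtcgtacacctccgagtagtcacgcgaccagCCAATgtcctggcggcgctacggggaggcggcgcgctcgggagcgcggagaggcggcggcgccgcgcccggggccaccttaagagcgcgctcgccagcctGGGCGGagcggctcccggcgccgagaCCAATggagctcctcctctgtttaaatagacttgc
The *Cdkn2b* window held none of the 8 motifs. The upstream *Cdkn1a* window held a p53 site core, 48 bases before the start at chr17:29090931-29090944, which 0.490% of 32851 promoter windows of the same length also held. This start lies 2790 bases before the downstream one, whose window held GC boxes at 104 and 46 bases before the start. The *Cdkn1b* window held a GC box at 61 bases and CCAAT boxes at 161 and 35 bases. Of all windows, 32.7% held a GC box and 33.8% a CCAAT box. The p53 core was added to the motifs after the sequence was seen, and a match is a match of letters only. Windows were found for 7 of the 10 genes.

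The D-type cyclins changed in opposite directions. *Ccnd2* (chr6:127125162-127152193, minus strand) encodes cyclin D2. Its normalized counts were 4355 at the lowest, 4758 at the median and 5245 at the highest in CTL tumors, and 5573, 8465 and 10395 in knockdown tumors. The groups did not overlap, and *Filip1l*-knockdown replicate 1, at 5573, was nearest to the CTL range while the other knockdown tumors began at 8092. The means were 4758 ± 299 and 8405 ± 1632 (SD, 6 tumors each), and the log2 fold change was 0.80 (SE 0.12, limma adjusted p = 8.98e-05), with 6 of 6 knockdown tumors above the CTL median. It was 0.92 without CTL replicate 5 and *Filip1l*-knockdown replicate 1.

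*Ccnd1* (chr7:144929931-144939925, minus strand) encodes cyclin D1, the most abundant cyclin transcript here. It had 12346, 14190 and 16202 normalized counts at the lowest, median and highest among CTL tumors and 11276, 12436 and 12792 in knockdown tumors. CTL replicate 3 was the CTL tumor within the knockdown range, and the knockdown tumors lay closer together than the CTL tumors. From 14130 ± 1428 to 12262 ± 576, the log2 fold change was -0.20 (SE 0.07, limma adjusted p = 0.0286). The call was lost in 4 fits that each left out a single tumor (CTL replicate 1, 2 or 4, or *Filip1l*-knockdown replicate 5, adjusted p = 0.0569 to 0.0651). It was also lost without CTL replicate 5 and *Filip1l*-knockdown replicate 1 together (limma adjusted p = 0.0626). The exons of *LTO1*, on the opposite strand, covered 23.4% of the exon bases of *Ccnd1*. *LTO1* itself did not pass (log2 fold change -0.08, limma adjusted p = 0.303). Whether the counting used strand is not given in the sources used here, so reads in the shared bases cannot be assigned.

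*Ccnd3* (chr17:47505051-47599691, plus strand), which encodes cyclin D3, had 1509, 1574 and 1800 normalized counts at the lowest, median and highest among CTL tumors and 1300, 1705 and 2015 in knockdown tumors. The knockdown range enclosed the CTL range. The log2 fold change of 0.07 (95% interval -0.14 to 0.27) did not pass (limma adjusted p = 0.617).

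Levels of the cyclins were compared with each other after division by exon length. That length merges the exons of all annotated transcripts of a gene, and which transcripts the tumors used was not tested. Shares and ranks of genes per kilobase are therefore approximate. On that scale, in normalized counts per kilobase of exon, *Ccnd1* made up 81.2% ± 1.89 of the D-type cyclin level in CTL and 70.7% ± 3.68 in knockdown tumors (mean ± SD, n = 6 each). *Ccnd2* made up 13.8% ± 1.49 and 24.0% ± 3.32. Neither share overlapped between the groups, and for each the exact two-sided permutation p was 0.00216, the smallest that 924 arrangements of the tumors can give (Benjamini-Hochberg adjusted p = 0.00288 over 4 shares). The *Ccnd3* share was 5.05% ± 0.618 and 5.28% ± 0.543 (exact permutation p = 0.5). A share within a tumor does not depend on the library factor.

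Per kilobase of exon, the summed level of the 3 D-type cyclins differed by less than the spread between tumors. It was 3692 ± 296 normalized counts per kilobase in CTL and 3693 ± 276 in knockdown tumors (n = 6 each, exact permutation p = 0.994), and the difference had a 95% interval of -387 to 380. Without CTL replicate 5 and *Filip1l*-knockdown replicate 1 the difference was 75.6 per kilobase (interval -382 to 486, exact permutation p = 0.690). The sum was chosen after the values of its parts were seen. It depends on the division by exon length, which was 4709 bases for *Ccnd1*, 9409 for *Ccnd2* and 8775 for *Ccnd3*. Undivided, the mean normalized counts went from 14130 to 12262 for *Ccnd1*, 4758 to 8405 for *Ccnd2* and 1627 to 1716 for *Ccnd3*. A sum of undivided counts was not tested.

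**Figure D2:**
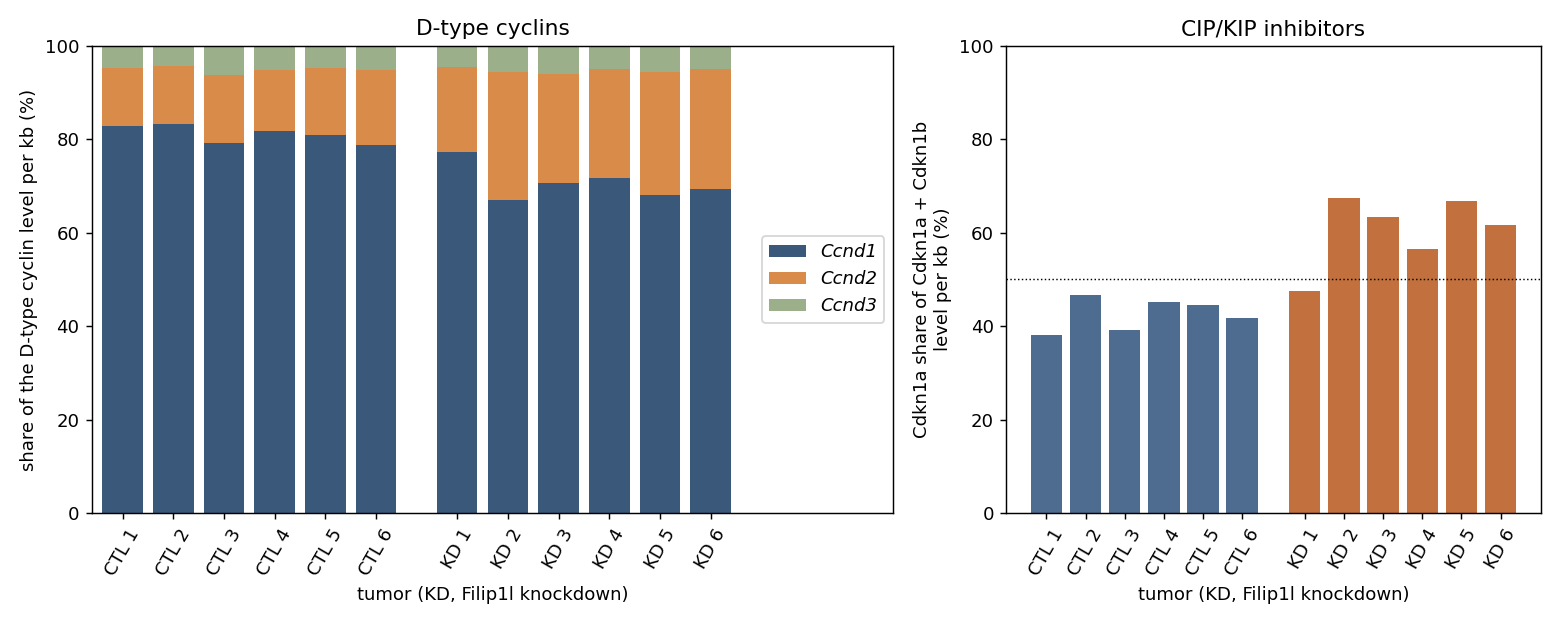
Left, the share of each D-type cyclin in the summed level per kilobase of exon (y axis, percent) in each tumor (x axis; KD, *Filip1l* knockdown); right, the share of *Cdkn1a* in the level of *Cdkn1a* and *Cdkn1b*, with a dotted line at an equal level. The *Ccnd2* share was 12.3% to 16.1% in CTL and 18.1% to 27.3% in knockdown tumors, and the *Cdkn1a* share was 38.2% to 46.8% and 47.6% to 67.5%.

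Cyclin E1, encoded by *Ccne1* (chr7:38097984-38107534, minus strand), was the least abundant of the 10 per kilobase. Its normalized counts were 125, 141 and 154 at the lowest, median and highest in CTL tumors and 139, 175 and 210 in knockdown tumors, and 5 of 6 knockdown tumors were above the CTL median. The log2 fold change of 0.28 (95% interval 0.02 to 0.55) did not pass over all genes (limma adjusted p = 0.0788), and it passed without *Filip1l*-knockdown replicate 5 (limma adjusted p = 0.0409). From 90 to 201 reads stood behind each of these values.

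Of the CIP/KIP inhibitors, *Cdkn1a* rose and *Cdkn1b* fell. *Cdkn1a* (chr17:29090976-29100727, plus strand), which encodes p21, had 1814, 2172 and 2524 normalized counts at the lowest, median and highest among CTL tumors and 2426, 4313 and 5010 in knockdown tumors. *Filip1l*-knockdown replicate 1, at 2426, lay below CTL replicate 5, at 2524, and all other knockdown tumors were above every CTL tumor. The means were 2185 ± 261 and 4090 ± 981 (SD, 6 tumors each), and the fitted log2 change was 0.87 (SE 0.15, limma adjusted p = 0.000408). Without *Filip1l*-knockdown replicate 1 the log2 fold change was 1.01, past the study's threshold of 1.

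*Cdkn1b* (chr6:134920401-134925513, plus strand) encodes p27. It had 3503, 3668 and 4200 normalized counts at the lowest, median and highest among CTL tumors and 3048, 3299 and 3473 in knockdown tumors, and the groups did not overlap. The step between them was small, with a log2 fold change of -0.19 (SE 0.06, limma adjusted p = 0.0149) from 3764 ± 292 to 3291 ± 155. Per kilobase of exon, *Cdkn1a* made up 42.6% ± 3.47 of the summed level of both genes in CTL and 60.6% ± 7.48 in knockdown tumors (n = 6 each, exact permutation p = 0.00216, adjusted p = 0.00288). In CTL tumors *Cdkn1b* was the more abundant transcript in 6 of 6, and *Filip1l*-knockdown replicate 1 was the knockdown tumor in which this still held.

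The INK4 inhibitors lie next to each other on chromosome 4 and differed in their changes. *Cdkn2b* (chr4:89306299-89311039, minus strand), which encodes p15, had 149, 201 and 307 normalized counts at the lowest, median and highest among CTL tumors and 319, 449 and 560 in knockdown tumors. The groups did not overlap, and the lowest knockdown tumor was *Filip1l*-knockdown replicate 1. Its log2 fold change was 1.09 (SE 0.19, limma adjusted p = 0.000381), from 214 ± 64.1 to 448 ± 89.9, and *Cdkn2b* was the gene of the 10 that passed both thresholds. Without CTL replicate 5, the lowest CTL tumor, its log2 fold change was 0.99 and no regulator passed both (limma, 0 of 10).

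*Cdkn2a* (chr4:89274471-89294653, minus strand) encodes p16 and, from another first exon, p19Arf, which a count per gene cannot tell apart. It had 67.8, 132 and 232 normalized counts at the lowest, median and highest among CTL tumors and 81.2, 116 and 178 in knockdown tumors. The knockdown range lay inside the CTL range. The log2 fold change of -0.18 had a wide interval, from -0.75 to 0.40 (limma adjusted p = 0.639), which leaves out a rise of the size fitted for *Cdkn2b*.

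The nearest measured neighbours of *Cdkn2b* did not rise with it. *Dmrta1*, a doublesex-related transcription factor gene 368.4 kb away at higher coordinate, fell from 115 ± 35.8 to 4.41 ± 3.38 normalized counts (log2 fold change -4.55, limma adjusted p = 4.75e-07), and its knockdown tumors held 2 to 11 reads. Of these tumors, 3 were at or under 3 reads, and over other processing settings the log2 fold change ran from -4.73 to -3.29. Between the 2 genes, *Gm12610*, a noncoding gene 110.8 kb away, had 15 to 35 reads per CTL tumor and 0 to 4 per knockdown tumor, at least 9.32-fold lower when the floor of 3 reads per library was taken for the knockdown group. On the other side *Cdkn2a* lies 11.65 kb from *Cdkn2b*. Beyond *Cdkn2a*, *Mtap*, the methylthioadenosine phosphorylase gene, did not pass (log2 fold change -0.11, limma adjusted p = 0.131), nor did *Gm12606* (-0.47, limma adjusted p = 0.0850). Farther on that side *Gm12602*, named after its values were seen, was lower (-0.74, limma adjusted p = 0.00197). The median log2 fold change of the 797 genes of chromosome 4 was 0.02.

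**Figure D3:**
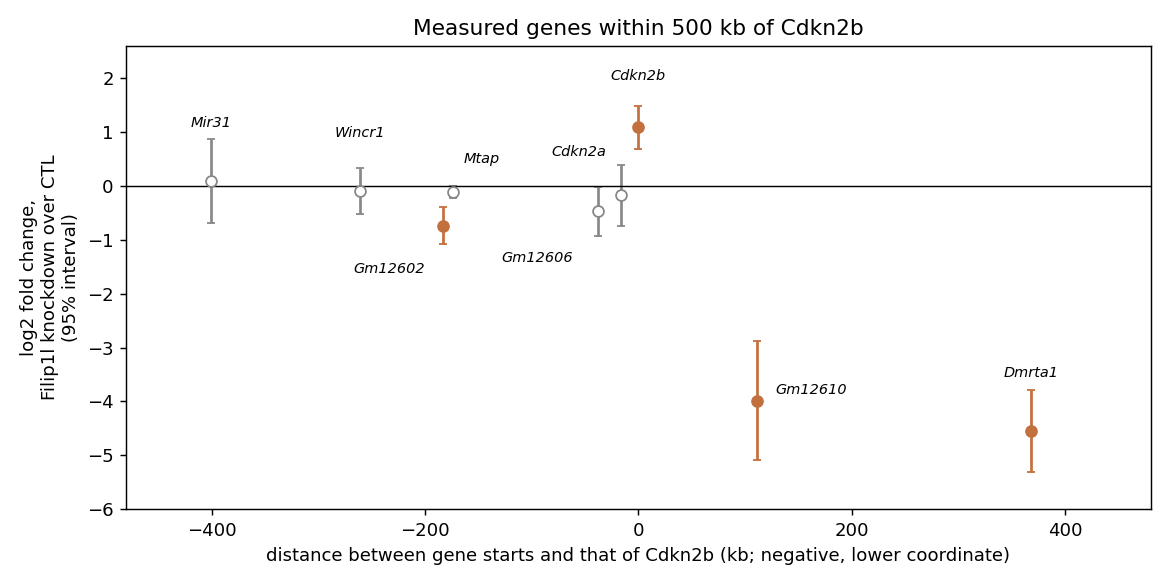
Log2 fold change with its 95% interval (y axis) of each measured gene within 500 kb of *Cdkn2b*, by the distance between gene starts in kb (x axis). Filled points passed an adjusted p of 0.05. *Cdkn2b*, at 1.09, was higher, while *Gm12602* (-0.74), *Gm12610* and *Dmrta1* (-4.55) were lower. The fitted value of *Gm12610* rests on 0 to 4 reads per knockdown tumor and depends on the value of 1 added before the logarithm. That of *Dmrta1* rests on 2 to 11 reads per knockdown tumor and ran from -4.73 to -3.29 over other processing settings.

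Among the neighbours of the other regulators, *Tigar*, a p53-induced regulator of glycolysis 15.6 kb from *Ccnd2*, was higher (log2 fold change 0.49, limma adjusted p = 0.000539), and *Parp11*, on the other side of *Ccnd2*, did not pass (0.14, limma adjusted p = 0.260). *Rab44*, 13.42 kb from *Cdkn1a*, was higher at a low level, from 18.2 ± 5.03 to 40.2 ± 15.8 normalized counts (log2 fold change 1.06, limma adjusted p = 0.00615), while *Srsf3* on the other side was level (-0.02, limma adjusted p = 0.814). *Lockd*, a noncoding RNA gene 3.579 kb beyond *Cdkn1b*, was lower (-0.44, limma adjusted p = 0.0475). *Pvt1*, the noncoding RNA gene beside *Myc*, was lower (-0.52, limma adjusted p = 0.00313). *Wrap53*, 0.104 kb from *Trp53* on the opposite strand, did not pass (0.08, limma adjusted p = 0.572).

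Neither transcription factor passed the test. *Myc* (chr15:61985391-61990374, plus strand) had 2213, 2615 and 3446 normalized counts at the lowest, median and highest among CTL tumors and 2016, 2393 and 2744 in knockdown tumors (log2 fold change -0.15, 95% interval -0.38 to 0.07, limma adjusted p = 0.272). *Trp53* (chr11:69580359-69591873, plus strand) had 3700, 3800 and 4888 in CTL tumors and 3302, 3668 and 3984 in knockdown tumors (log2 fold change -0.14, 95% interval -0.30 to 0.02, limma adjusted p = 0.140). The groups overlapped for both genes, and both intervals lie within the study's threshold of 1 in either direction. *Trp53* passed when the libraries were rescaled to the same total (-0.18, limma adjusted p = 0.0338).

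**Figure D4:**
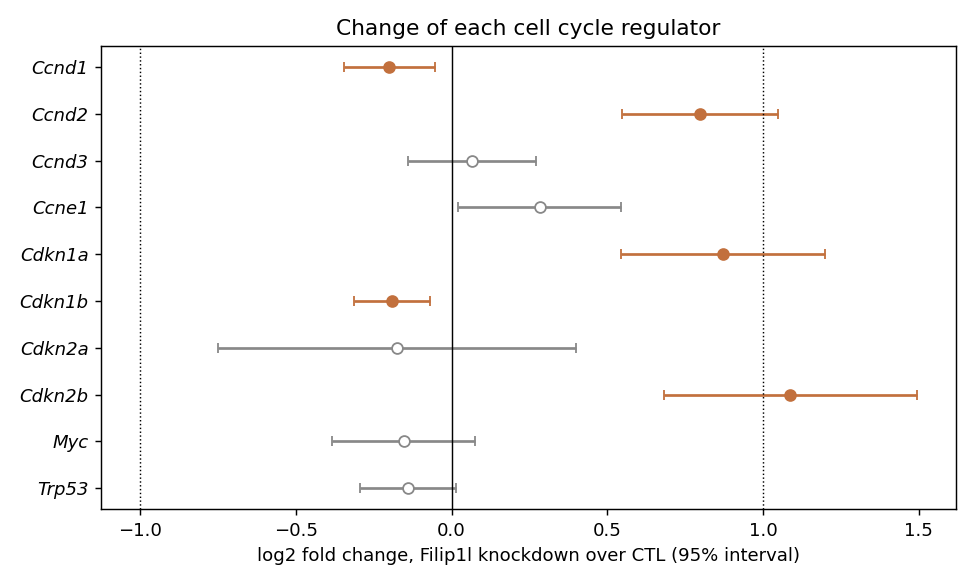
Log2 fold change of each regulator, *Filip1l* knockdown over CTL, with its 95% interval (x axis). Filled points passed an adjusted p of 0.05, and dotted lines mark the study's threshold of 1 in each direction. *Ccnd2*, *Cdkn1a* and *Cdkn2b* lie between 0.80 and 1.09, and *Ccnd1* and *Cdkn1b* lie at -0.20 and -0.19.

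The order of the 10 levels also differed between the groups. Per kilobase of exon in CTL tumors, *Ccnd1* was highest at 3001 ± 303 normalized counts. *Trp53* (996 ± 115), *Myc* (980 ± 160) and *Cdkn1b* (827 ± 64.0) followed, and the ranges of neighbours among these overlapped. *Cdkn1a* (615 ± 73.5) and *Ccnd2* (506 ± 31.8) overlapped with each other, and *Ccnd3* (185 ± 14.8), *Cdkn2b* (154 ± 46.1), *Cdkn2a* (120 ± 48.5) and *Ccne1* (52.9 ± 4.30) each overlapped with the next. In knockdown tumors *Ccnd1* was again highest, at 2604 ± 122. *Cdkn1a*, at 1151 ± 276, ranked 2 where it ranked 5 in CTL tumors, and *Ccnd2*, at 893 ± 173, ranked 4 where it ranked 6, with *Trp53*, *Myc* and *Cdkn1b* in the same overlapping range. Against all genes of the CTL tumors, *Ccnd1* stood at the 97.7th percentile and *Ccne1* at the 33.4th.

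Pairs of regulators were also compared within each group. Over all pairs in each group, 90 in total, 0 passed an adjusted p of 0.05 (exact permutation tests, lowest adjusted p = 0.125) and 10 had an unadjusted p below 0.05. The smallest p that permuting 6 tumors can give is 0.00139, which over 90 pairs adjusts to 0.125, so no pair standing alone could pass at this size. In knockdown tumors *Ccnd2* and *Cdkn2b* had a Pearson r of 0.946 (exact permutation p = 0.00139, adjusted p = 0.125, n = 6) and the same rank order (Spearman rho = 1, exact permutation p = 0.00278). The r was 0.896 without the 2 tumors farthest from the *Ccnd2* median. For *Ccnd2* and *Cdkn1a* in the same tumors r was 0.900 (exact permutation p = 0.0319, adjusted p = 0.361; rho = 0.714, exact permutation p = 0.136). It was 0.271 without the 2 farthest tumors, so that relation rests on them. In CTL tumors *Cdkn2a* and *Cdkn2b* had r = 0.902 (exact permutation p = 0.0111, adjusted p = 0.333; rho = 0.886, exact permutation p = 0.0333), and r was 0.923 without the 2 farthest. Each of these pairs had a lower r in the other group. In CTL tumors r was -0.433 for *Ccnd2* and *Cdkn2b* (exact permutation p = 0.417) and 0.346 for *Ccnd2* and *Cdkn1a* (exact permutation p = 0.517). In knockdown tumors r was -0.0415 for *Cdkn2a* and *Cdkn2b* (exact permutation p = 0.942). Whether r differed between the groups was not tested.

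The genes most like each regulator were sought among 12887 genes, by Pearson correlation over the 12 tumors after group means were removed. They are given as a description of shared variation between tumors, which depth and the mix of cells can also move. A single tumor far from its group can raise such an r too, as *Filip1l*-knockdown replicate 1 was for *Ccnd2* and *Cdkn1a*. The correlations were not repeated without it. For *Ccne1* the closest was *Skp2*, the F-box protein of the ligase that degrades p27 (r = 0.948). *Bnip3l*, a mitophagy receptor (r = 0.980), and *Frk*, a tyrosine kinase (r = 0.964), were closest to *Cdkn1a*. *Tspan8* (r = 0.960) was among the closest to *Ccnd2*. For *Ccnd1* these were *Sec23a* (r = 0.911) and *Abcb1a* (r = 0.893), for *Ccnd3* *Agpat1* (r = 0.971) and *Pim2* (r = 0.953), and for *Cdkn1b* *1810026B05Rik* (r = 0.959) and *Firre* (r = 0.928). *Cdkn2b* had the weakest first match (*Gimd1*, r = 0.887). The first match of *Myc* was *Bcl2l1* (r = 0.934), and those of *Trp53* were *Rpl8* (r = 0.956) and *Prkag1* (r = 0.952).

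Markers of several cell types differed between the groups. The counts of markers stand beside 21.1% of all genes higher and 20.7% lower. Of 7 epithelial markers 6 were higher, and their summed level was 149502 to 196283 normalized counts in CTL and 215850 to 394733 in knockdown tumors, with *Filip1l*-knockdown replicate 1 the lowest of these at 215850. The fibroblast sum, by contrast, was 160012 to 260347 in CTL and 74885 to 252720 in knockdown tumors, with the same tumor the highest knockdown tumor. These ranges overlapped, and 2 of the 7 fibroblast markers were lower, near the share of all genes. So the knockdown tumor with the least *Ccnd2*, *Cdkn1a* and *Cdkn2b* was also the one nearest to CTL in the epithelial and fibroblast sums. The same tumor was the lowest knockdown tumor in the adipocyte sum (1445). It was the highest in the endothelial (4687), macrophage (25455) and T cell (1547) sums. In the neutrophil, skeletal muscle and B cell values it was above the knockdown median. All 5 neutrophil markers were higher (278 to 352 in CTL and 742 to 1153 in knockdown tumors), as were 5 of 5 endothelial markers (2308 to 2956 and 2966 to 4687). The skeletal muscle markers, 7 of 8 higher, spread over 2275 to 11904 and 5221 to 87445, and 3 of 4 measured adipocyte markers were higher (1087 to 1645 and 1445 to 2497). Macrophage markers had 2 of 7 higher (16251 to 22544 and 16318 to 25455), also near the share of all genes. T cell markers had 0 of 6 in either direction by limma (0 also at an unadjusted p below 0.05 and by edgeR), with sums of 733 to 1925 and 786 to 1547. The measured B cell marker, *Cd79b*, 1 of 4, was higher at 11.4 to 29.9 and 27.4 to 62.9. The part of these markers in the differences of the cyclins and inhibitors was not tested.

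The kinase partners of the cyclins changed little. Of 12 measured cyclin-CDK partners and other CDK inhibitors, 3 were higher and 3 lower (41.9% of all genes passed in either direction), with a median log2 fold change of -0.11. *Cdkn2c*, which encodes the INK4 inhibitor p18, rose from 890 ± 83.8 to 1368 ± 150 normalized counts (0.62, limma adjusted p = 4.24e-05), and *Cdc25a*, the phosphatase that activates *Cdk2*, rose by 0.40 (limma adjusted p = 0.00014). *Cdk4*, the most abundant partner, was lower by a small amount (-0.18, limma adjusted p = 0.0213), as were *Cdk7* (-0.24, limma adjusted p = 0.00457) and *Mnat1* (-0.25, limma adjusted p = 0.0105) of the CDK-activating kinase. *Cdk6* did not pass (-0.12, limma adjusted p = 0.118).

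Downstream of the cyclins, 2 of 13 Rb family and E2F genes were higher and 4 lower, against 41.9% of all genes in either direction, and their median was -0.09. *Rb1*, the retinoblastoma gene, rose from 750 ± 29.5 to 1566 ± 215 normalized counts (1.05, limma adjusted p = 3.93e-07) and *E2f2* from 146 ± 17.3 to 353 ± 35.0 (1.27, limma adjusted p = 6.41e-07), while *E2f1* fell from 703 ± 60.3 to 456 ± 36.2 (-0.62, limma adjusted p = 1.82e-05). *Rb1* lies on chromosome 14, where the median over 452 genes was 0.39, and its log2 fold change was 0.67 with chromosome medians removed. *Rbl2* (-0.56, limma adjusted p = 7.61e-05) and *E2f4* (-0.36, limma adjusted p = 9.64e-05), which pair in the repressive complex of resting cells, lie on chromosome 8, where the median over 702 genes was -0.19, and had -0.36 and -0.16 with chromosome medians removed. *Tfdp1*, an E2F partner also on chromosome 8, did not pass (-0.15, limma adjusted p = 0.0680), and its sign turned with chromosome medians removed.

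Replication genes fell more often than they rose. Of 25 E2F target and replication genes, 11 were lower and 1 higher, with a median log2 fold change of -0.19 (20.7% of all genes were lower). With chromosome medians removed 9 were lower, and without CTL replicate 5 and *Filip1l*-knockdown replicate 1 it was 13. The DNA helicase genes *Mcm6* (5886 ± 334 to 4522 ± 195, log2 fold change -0.38, limma adjusted p = 3.74e-05) and *Mcm5* (-0.44, limma adjusted p = 0.00177) were lower, and so were *Gins2* (-0.43, limma adjusted p = 0.00135) and *Gins3* (-0.37, limma adjusted p = 0.0186). *Mcm5*, *Gins2* and *Gins3* lie on chromosome 8. With chromosome medians removed *Mcm5* had -0.24 and *Gins2* -0.23, and *Gins3* no longer passed (-0.18, limma adjusted p = 0.204). *Pcna*, the sliding clamp, did not pass (-0.10, limma adjusted p = 0.236).

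Of 23 mitotic genes, 3 were higher and 1 lower, with a median of 0.09, beside 21.1% and 20.7% of all genes. *Cdc20* (0.39, limma adjusted p = 0.00414), *Ube2c* (0.31, limma adjusted p = 0.0229) and *Aurka* (0.28, limma adjusted p = 0.0295), which act in chromosome segregation and mitotic exit, were higher, and the calls of *Ube2c* and *Aurka* each failed in 5 of the 12 fits without a single tumor. The motor gene *Kif11*, on chromosome 19 where the median was -0.35, was lower (-0.34, limma adjusted p = 0.00849) but had a log2 fold change of 0.02 with chromosome medians removed. The proliferation markers *Mki67* (6217 ± 402 and 6740 ± 436, log2 fold change 0.12, limma adjusted p = 0.128) and *Top2a* (0.05, limma adjusted p = 0.710) did not pass.

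Among 13 genes of cyclin and p27 turnover, 5 were lower (20.7% of all genes) and 0 higher by limma (1 higher at an unadjusted p below 0.05, 0 by edgeR, and 1 without CTL replicate 5 and *Filip1l*-knockdown replicate 1), with a median of -0.08. *Btrc*, the F-box protein β-TrCP (-0.83, limma adjusted p = 5.36e-07), lies on chromosome 19. *Fbxo31*, an F-box protein known to target cyclin D1 (-0.61, limma adjusted p = 3.65e-06), lies on chromosome 8, and with chromosome medians removed the log2 fold changes were -0.47 and -0.41. *Cks1b*, the cofactor of *Skp2* (-0.26, limma adjusted p = 0.0186), and *Cul3* (-0.20, limma adjusted p = 0.00495) were lower as well. *Skp1a*, the core adaptor, had -0.04 (limma adjusted p = 0.752).

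The relatives of *Myc* passed at a share near that of all genes, with 5 of 13 genes of the *Myc*, *Max* and *Mxd* network higher and 2 lower (median 0.12; 41.9% of all genes in either direction). Without CTL replicate 5 and *Filip1l*-knockdown replicate 1 these were 5 and 1. *Mxd1*, an antagonist of *Myc* that binds *Max*, rose from 739 ± 119 to 1998 ± 523 normalized counts (1.40, limma adjusted p = 1.67e-05), and the paralogs *Mycl* (0.75, limma adjusted p = 0.00096) and *Mycn* (0.66, limma adjusted p = 0.00155) rose. *Mlxipl*, the glucose-responsive factor ChREBP, rose from a low level (36.7 ± 17.6 to 151 ± 22.9, log2 fold change 2.13, limma adjusted p = 2.25e-05). *Mxd4* fell (-0.30, limma adjusted p = 0.000546), and *Mxi1*, on chromosome 19, did not pass (-0.18, limma adjusted p = 0.0799; 0.18 with chromosome medians removed).

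*Myc* target genes were spread around no change. Of 21, 6 were higher and 2 lower, with a median of 0.01 (21.1% and 20.7% of all genes), and after rescaling to the same total 5 and 4. *Ldha*, the lactate dehydrogenase gene (37080 ± 2892 to 53904 ± 8749, log2 fold change 0.53, limma adjusted p = 0.00154), *Rrs1* of ribosome assembly (0.51, limma adjusted p = 0.000628) and *Odc1* of polyamine synthesis (0.40, limma adjusted p = 2.34e-05) were higher. The nucleolar genes *Nolc1* (-0.37, limma adjusted p = 4.93e-06) and *Npm1* (-0.23, limma adjusted p = 0.00926) were lower, and *Nolc1*, on chromosome 19, had -0.02 with chromosome medians removed.

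Of 29 *Trp53* target genes, a list that leaves out *Cdkn1a*, 8 were higher and 5 lower, with a median of 0.07 (21.1% and 20.7% of all genes). Without CTL replicate 5 and *Filip1l*-knockdown replicate 1 these were 11 and 3. After rescaling to the same total they were 7 and 6, and by edgeR 8 and 6. The higher genes included *Btg2*, an antiproliferative gene (704 ± 72.5 to 1152 ± 122, log2 fold change 0.71, limma adjusted p = 1.95e-05), *Psrc1* (0.72, limma adjusted p = 0.000473), the stress cytokine gene *Gdf15* (0.86, limma adjusted p = 0.0074) and *Perp* (0.48, limma adjusted p = 0.0123). The 5 lower genes, named after their values were seen, were *Trp53inp1* (-0.46, limma adjusted p = 0.00141), *Ddit4l* (-0.42, limma adjusted p = 0.0224), *Bbc3* (-0.26, limma adjusted p = 0.0264), *Rrm2b* (-0.25, limma adjusted p = 0.0112) and *Xpc* (-0.17, limma adjusted p = 0.0413). The abundant targets *Ccng1* (0.17, limma adjusted p = 0.0502) and *Phlda3* (0.22, limma adjusted p = 0.0811) did not pass, though each did in 2 of the 12 fits without a single tumor. Of 11 measured *Trp53* regulators, 1 was higher and 2 lower (median -0.05; 1 lower without those libraries), with the checkpoint kinases apart, *Chek1* lower (-0.40, limma adjusted p = 0.00379) and *Chek2* higher (0.30, limma adjusted p = 0.0132). The ubiquitin ligase gene *Rchy1* was lower (-0.19, limma adjusted p = 0.0197, or 0.0608 without those libraries), and *Usp7* (limma adjusted p = 0.990) and *Cop1* (-0.03, limma adjusted p = 0.702) did not pass.

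**Figure D5:**
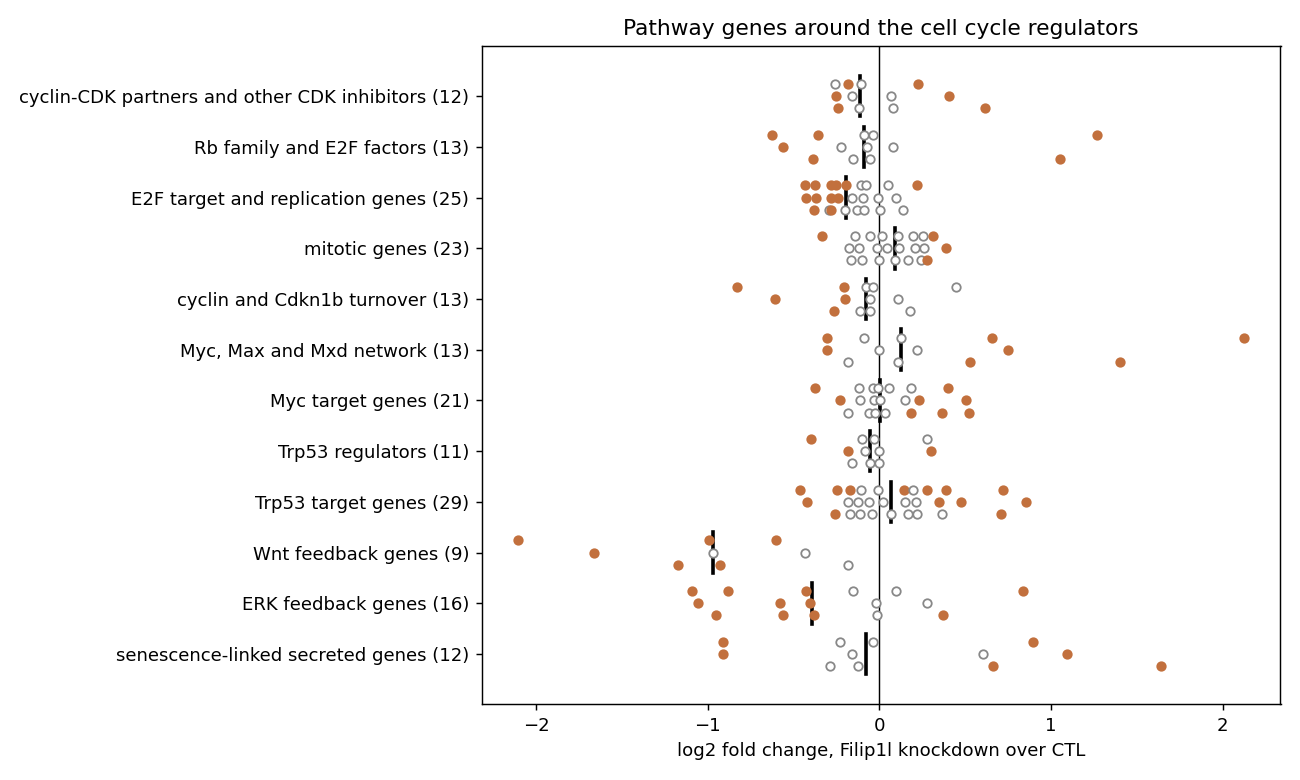
Log2 fold change (x axis) of the genes of 12 pathway lists (y axis, with the number of measured genes). Each point is a gene, filled where the adjusted p was below 0.05, and black bars are list medians, which ran from -0.97 for Wnt feedback genes to 0.12 for the *Myc*, *Max* and *Mxd* network.

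Feedback genes of the Wnt and ERK pathways, which act upstream of *Ccnd1* and *Myc*, were lower more often than higher. Of 9 measured Wnt feedback genes, 6 were lower, beside 20.7% of all genes, and 0 higher by limma (0 also at an unadjusted p below 0.05 and by edgeR), with a median of -0.97. They included the transcription factor gene *Tcf7* (1285 ± 158 to 303 ± 76.2, log2 fold change -2.10, limma adjusted p = 9.41e-08). *Axin2* (-1.66, limma adjusted p = 0.000235), the receptor gene *Lgr5* (-0.99, limma adjusted p = 0.0103), *Znrf3* (-0.60, limma adjusted p = 1.8e-05) and *Nkd1* (-0.93, limma adjusted p = 0.0356) were lower too, and *Nkd1* failed the test in 9 of the 12 fits without a single tumor. Of 16 ERK feedback genes, 9 were lower, beside 20.7% of all genes, and 2 higher, beside 21.1%, with a median of -0.39. The Ras-ERK inhibitors *Spry1* (-0.95, limma adjusted p = 5.36e-07) and *Spry4* (-0.88, limma adjusted p = 1.6e-05), the factor *Etv5* (1612 ± 47.8 to 780 ± 106, log2 fold change -1.06, limma adjusted p = 4.22e-07) and *Fosl1* (-1.09, limma adjusted p = 5.5e-06) were lower. *Fosl1* lies on chromosome 19 and *Nkd1* on chromosome 8, and with chromosome medians removed both had a log2 fold change of -0.73. *Phlda1* was higher (0.37, limma adjusted p = 0.0305), a call that failed in 5 of the 12 fits without a single tumor, and the phosphatase gene *Dusp6* did not pass (-0.15, limma adjusted p = 0.127). Without CTL replicate 5 and *Filip1l*-knockdown replicate 1, 5 of the 9 Wnt and 9 of the 16 ERK feedback genes were lower.

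Secreted factors that are often measured beside *Cdkn1a* and *Cdkn2a* in senescent cells went both ways. Of 12, 4 were higher and 2 lower (median -0.08; 21.1% and 20.7% of all genes), and without CTL replicate 5 and *Filip1l*-knockdown replicate 1 these were 4 and 4 (median -0.14). The cytokine gene *Il1a* rose from 118 ± 26.6 to 376 ± 102 normalized counts (1.64, limma adjusted p = 1.06e-05) and the neutrophil chemokine gene *Cxcl2* from 73.9 ± 16.5 to 162 ± 53.2 (1.10, limma adjusted p = 0.000746). The IGF-binding protein genes *Igfbp3* (-0.91, limma adjusted p = 0.000132) and *Igfbp7* (-0.91, limma adjusted p = 3.63e-06) fell. All 5 neutrophil markers were higher in the same tumors, and their part in the values of the cytokine genes was not tested.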

How the data were processed

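Per the methods of the study and the submitters' processing notes, base calls were made with bcl2fastq 2.20, reads trimmed with Trimmomatic 0.36, aligned with STAR 2.5.2b to mm10 and counted per gene with featureCounts (Subread 1.5.2). The authors divided the counts by DESeq2 size factors, so the deposited values are a normalized signal, not corrected for length. In each tumor 100% of values were whole multiples of what 1 read is worth (within 0.01), which gave the reads per library (17834745 to 32419578) and the floor of 3 reads. In 3 tumors that value lay within 1% of 1, where whole reads are harder to tell from rounded values. Floors cover counting error only, while the 95% intervals of fold changes and differences cover the spread between tumors. All 12 tumors were mapped by their labels, which name no batch.

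Log2(value + 1) was tested with limma 3.58.1 (mean-variance trend, R 4.3.3) on 15687 genes (a filter at a mean of 5 removed 0), with Benjamini-Hochberg adjustment. A count test on all 12 libraries (edgeR 4.0.16) was an added alternative. Fold changes on this scale understate the change of low genes. Single values were compared by exact two-sided permutation of the tumors, and intervals for a difference by inverting that test. Positions and exon lengths came from GENCODE vM21 (GRCm38), where 15661 identifiers matched, and promoters from RefSeq. The methods were tested on simulated data. Members and lists were chosen with earlier results of these data known. Named genes were all members, per list up to 4 with the largest change past the test at a mean of at least 50 and up to 2 with the highest mean, the 2 nearest genes per side within 500 kb of a member, and the 2 genes most like each member, of which some are not reported here.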

Additional observations from a re-analysis of the deposited data

Results flagged for a closer look

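In each group of 6, the highest and lowest tumors of the named genes were compared with their nearest neighbour by Dixon's ratio. Of 164 groups examined, 6 had such a tumor, where chance would give about 8.2. None of the 10 regulators was among them. *Filip1l*-knockdown replicate 1 accounted for 4. It had 2176 normalized counts of *Nolc1*, where the other knockdown tumors had 2283 to 2331, and 3745 of *Phlda3*, against 4882 to 5421. Among the Wnt feedback genes it had 449 of *Tcf7*, against 223 to 299, and 106 of *Nkd1*, against 28.4 to 55.3. CTL replicate 4 had 5251 of *Phlda3*, where the other CTL tumors had 3856 to 4336. *Filip1l*-knockdown replicate 5 had 6644 of *Cdk4*, against 5659 to 5983.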

How the results depend on the processing

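The count of regulators past an adjusted p of 0.05 was 5 and ran from 4 to 6 over 2 pseudocounts, no filter and a stricter filter, 2 rescalings, limma without a trend, the replicate block, the fits without single tumors or without CTL replicate 5 and *Filip1l*-knockdown replicate 1 together and, chosen after seeing the data, edgeR on whole reads and the removal of chromosome medians. *Ccnd2*, *Cdkn1a*, *Cdkn1b* and *Cdkn2b* kept their direction and call in all of them. The count past both thresholds, 1, was 2 without CTL replicate 5 and *Filip1l*-knockdown replicate 1 together, and ran from 0 (without CTL replicate 5) to 2 (without *Filip1l*-knockdown replicate 1) over the fits without a single tumor, while the fitted *Cdkn2b* and *Cdkn1a* changes lie close to the threshold of 1. The replicate numbers were not known to pair tumors. Deviations of same-numbered tumors correlated at -0.269 to 0.099, and with the replicate number as a block 5905 genes passed in place of 6566, with 5 regulators among them. Under this block 9 *Trp53* targets were higher and 3 lower, and 4 Wnt feedback genes, 1 *Myc* network gene and 1 *Trp53* regulator were lower. By edgeR 3262 genes were higher and 3364 lower, and after rescaling to the same total 2940 and 3667, in place of 3314 and 3252. Without correction for exon length the *Ccnd3* share differed by -0.319 points in place of 0.226 (exact permutation p = 0.5 both times), the shares being of other quantities. With chromosome medians removed the log2 fold change was 0.046 for *Tfdp1*, 0.023 for *Kif11*, 0.178 for *Mxi1* and -0.0058 for *Usp7*. *Usp7*, at 0.0009 with all tumors, was -0.0107 after rescaling to the 75th percentile, -0.0407 after rescaling to the same total, -0.0116 by edgeR, and -0.0199 to 0.0183 without single tumors. *Skp1a*, at -0.04, was 0.0105 without CTL replicate 5 and *Filip1l*-knockdown replicate 1 and ran from -0.0727 to 0.0063 without single tumors. The causes were not tested. The fewest reads among the regulators stood behind *Cdkn2a* (68 to 245 per tumor) and *Ccne1* (90 to 201). No strand setting is known, and p-values cover the spread between the tumors of each group only.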
